A study of Mus musculus with 4 samples.

Results

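The genes of mouse chromosome 4 that carried reads were followed in order along the chromosome in C3H10T1/2 cells, an established mouse mesenchymal stem cell line. Members were chosen by position and depth: 858 of the 2873 chromosome 4 gene identifiers in the files had at least 100 reads summed over the 4 libraries, and 760 of these code for protein. Genes on all chromosomes that reached the same depth numbered 14473, and the 13148 on the other 18 autosomes served as the reference. The study made total RNA libraries from unedited WT cells (1 library), from PRDX1MT cells, in which CRISPR changed the splice acceptor of Prdx1 intron 5 (1 library, genotype label PRDX1-KO, library named for clone 10), and from 2 clones, 1 and 5, with both DNMT3A and DNMT3B knocked out (DKO, 1 library each). All cells came from the same line and were grown in the same serum medium without a treatment. Whether either DKO clone was made in cells with the Prdx1 edit is not stated in the labels. Each edited line was 1 clone with 1 library, so no single-library comparison has a replicate check, and only the DKO clones give a spread.

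Peroxiredoxin 1, encoded by Prdx1, removes hydrogen peroxide, and Mmachc, its neighbour on the opposite strand, encodes the protein that trims incoming vitamin B12 in the cytoplasm. Transcription that runs past the end of Prdx1 crosses Mmachc and its promoter in antisense, and the study asked how such readthrough silences a promoter. DNMT3A and DNMT3B are the enzymes that place new methyl groups on DNA, mainly at CG. The same chromosome holds Cdkn2a and Cdkn2b, neighbouring inhibitors of the cyclin-dependent kinases that drive cells out of G1, in a block that cultured mouse lines often lose. RNA from a gene commonly scales with the number of its copies, so a gained or lost chromosome segment shifts neighbouring genes by a like amount. The comparison here was therefore whether single genes near both loci moved with their neighbours. Were RNA to follow copies exactly, going from 4 copies to 3 would give a log2 ratio of -0.42 and going from 4 to 5 a log2 ratio of 0.32. DNA copy number itself was not measured.

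The sequences just before the starts of the 4 genes on which the local comparisons turn are given in RefSeq GRCm38.p6, the patch release of the same assembly as mm10, 5′ to 3′ on each gene's strand, with every CG in capitals because CG is where DNMT3A and DNMT3B act. Prdx1 (chr4:116685349-116685543, plus strand) has 9 CG in 195 bases. Mmachc (chr4:116708407-116708508, minus strand) has 4 CG in 102 bases, which is the whole gap between Mmachc and the next gene, Ccdc163. Cdkn2a (chr4:89294654-89294869, minus strand) has 35 CG in 216 bases, and Cdkn2b (chr4:89311040-89311282, minus strand) has 11 in 243.
Prdx1: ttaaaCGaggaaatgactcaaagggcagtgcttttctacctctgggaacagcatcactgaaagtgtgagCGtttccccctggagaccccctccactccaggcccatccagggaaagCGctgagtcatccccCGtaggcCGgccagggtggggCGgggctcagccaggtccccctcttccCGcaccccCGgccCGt
Mmachc: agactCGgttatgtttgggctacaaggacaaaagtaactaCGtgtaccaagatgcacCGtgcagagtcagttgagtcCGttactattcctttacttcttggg
Cdkn2a: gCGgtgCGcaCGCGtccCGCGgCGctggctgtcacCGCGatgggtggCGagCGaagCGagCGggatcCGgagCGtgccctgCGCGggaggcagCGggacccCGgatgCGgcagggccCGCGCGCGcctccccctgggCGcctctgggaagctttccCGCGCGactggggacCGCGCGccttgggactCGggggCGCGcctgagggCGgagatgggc
Cdkn2b: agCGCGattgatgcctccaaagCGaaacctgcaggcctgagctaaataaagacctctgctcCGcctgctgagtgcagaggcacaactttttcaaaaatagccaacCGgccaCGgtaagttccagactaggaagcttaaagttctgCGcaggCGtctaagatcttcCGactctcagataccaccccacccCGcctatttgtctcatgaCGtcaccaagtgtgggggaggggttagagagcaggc
The full promoter window of 300 bases held 19 CG at Prdx1, 15 at Mmachc, 45 at Cdkn2a and 18 at Cdkn2b, against a median of 7 over 32851 mouse promoter windows. At least as many CG were found in 28.1% of those windows for Prdx1, 34.6% for Mmachc, 1.93% for Cdkn2a and 29.7% for Cdkn2b. CG reads the same on both strands, and these counts describe sequence only. DNA methylation was not analysed here.

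Counts per library summed to between 27570136 and 37685798 reads. Chromosome 4 received 3.90% of all reads in PRDX1MT and 4.43% in clone 1, against 4.79% in WT and 5.64% in clone 5. The edited genes checked the labels unevenly: Prdx1 had 16428 reads in WT, 775 in PRDX1MT, 13987 in clone 1 and 9136 in clone 5. Dnmt3a stood at 43.4 CPM (reads scaled to the library's depth) in WT, 79.3 in PRDX1MT, 31.8 in clone 1 and 26.2 in clone 5, and Dnmt3b at 3.26, 3.67, 2.87 and 2.06 CPM in the same order. A knockout by small edits need not remove the RNA, so these levels do not decide whether the protein is lost. Of the mesenchymal markers, the 10 genes of the list summed to 22492 CPM in WT, 33721 in PRDX1MT, 22696 in clone 1 and 41273 in clone 5, with Thy1 at 28.8 CPM in WT and 0.87, 0.77 and 1.39 CPM in the edited lines. Markers of endothelial, epithelial, immune, muscle and neural cells summed to at most 7.67 CPM in any library. Without the reads of a single library, 67 members would fall under the depth minimum for WT, 35 for PRDX1MT, 41 for clone 1 and 44 for clone 5. Such members passed through the library where they are high, and counts over members are given with that in mind. In bulk RNA, fewer cells of a type and less RNA per cell cannot be told apart.

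Chromosome 4 as a whole stood apart most between the 2 DKO clones. Values are log2 ratios of CPM after trimmed-mean scaling, with a prior count of 2, and a relative value has the median of the genes of the other 18 autosomes subtracted. The relative median over the 858 members was 0.42 for clone 5 against clone 1, the highest of the 19 autosomes, followed by chromosome 16 at 0.23. Chromosome 2 was the lowest at -0.21. In that comparison 73.5% of members had a ratio above 0, against 47.5% of genes on the other autosomes. Against WT, the relative median was -0.16 in PRDX1MT (rank 17 from the highest of 19), -0.19 in clone 1 (rank 18) and 0.28 in clone 5 (rank 3, behind chromosome 16 at 0.32 and chromosome 6 at 0.29). The shares of members above 0 were 40.1%, 39.9% and 65.6%, and 48.3%, 51.4% and 49.1% on the other autosomes. The 3 comparisons to WT share the WT library, so any departure of WT enters all of them.

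**Figure D1:**
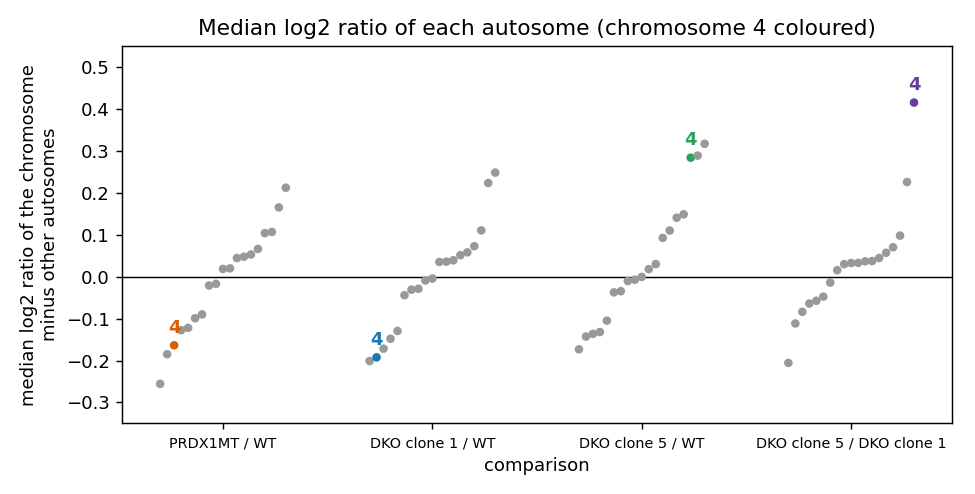
Each point is the median log2 ratio of 1 autosome, minus the median of the genes on all autosomes other than chromosome 4, for the 4 comparisons on the x axis, and the coloured points are chromosome 4. Chromosome 4 lies at -0.16, -0.19 and 0.28 against WT and at 0.42, above every other autosome, for DKO clone 5 against clone 1.

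Clone 5 lay above clone 1 over most of the chromosome and least from 60 to 70 Mb, where 13 of 23 members were above the reference. A running median over 25 consecutive members gave 834 windows. For clone 5 against clone 1 all 834 lay above the reference, between 0.04 and 1.01, and 57.4% exceeded it by more than 0.4, a distance passed upwards by 2.78% of the 12716 windows on the other autosomes. The broadly expressed genes along the chromosome, a list of 53 members chosen for roles that most cells need, gave a relative median of 0.65 with 48 of 53 above the reference. Plag1, a growth-promoting transcription factor with a log2 ratio of 4.197, is also on the list, so not every member has such a role. Among the list's most abundant members were Tln1, the talin that couples integrins to actin, with 960 CPM in clone 1 and 1691 in clone 5. Eno1, a glycolytic enzyme at the far end of the chromosome, had 476 and 1177 CPM, and Vcp, an ATPase that extracts proteins for degradation, had 495 and 671 CPM. Macf1, which links microtubules to actin, differed least of these at 837 and 985 CPM.

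**Figure D2:**
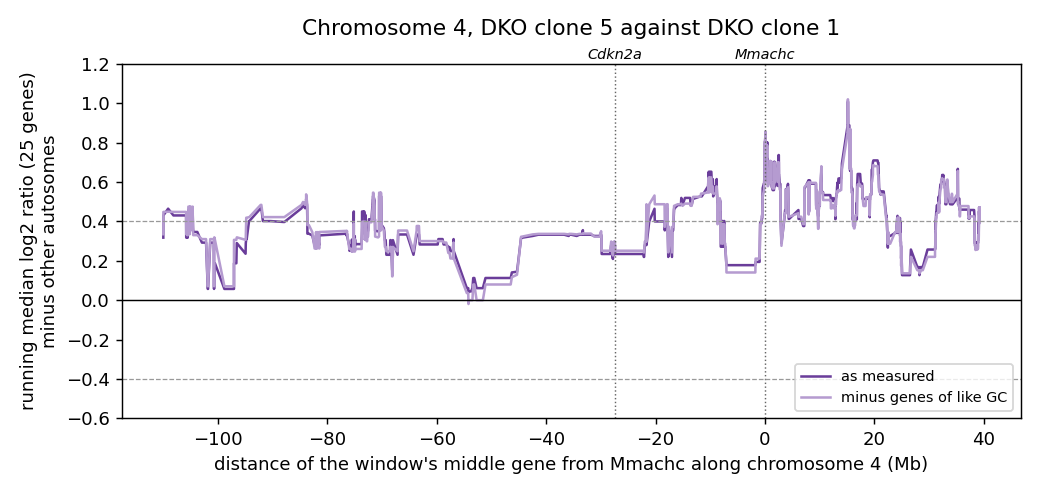
The y axis is the running median over 25 members of the log2 ratio of DKO clone 5 to DKO clone 1, minus the other autosomes, and the x axis is the distance in Mb from Mmachc. The dark line (as measured) stays between 0.04 and 1.01, and the pale line (minus genes of like GC content) follows it, with 824 of 834 windows above 0.

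Transcript GC content moved with the comparisons to WT and scarcely with the comparison of the clones. With the genes of the other autosomes put into 5 equal groups by GC content, from the lowest group to the highest, the median log2 ratio went from -0.44 to 0.34 in PRDX1MT, from -0.20 to 0.23 in clone 1 and from -0.28 to 0.23 in clone 5, all against WT, and from -0.08 to -0.02 for clone 5 against clone 1. After the median of genes of like GC content was subtracted, 824 of 834 windows for clone 5 against clone 1 were above the reference and the lowest stood at -0.02. Cell cycle genes also differed between the clones. Without the 23 members of the cell cycle list, the relative median for clone 5 against clone 1 was 0.41 over 835 members. Leaving out so few members could move the median only little. Whether the cell cycle difference bears on the level of the chromosome was not tested.

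Against WT the chromosome fell into parts. In PRDX1MT, 25.2% of windows lay more than 0.4 below the reference and 5.40% above it, against 8.08% and 4.79% on the other autosomes. With genes of like GC content subtracted, none of its windows lay more than 0.4 above. Clone 1 had 29.5% below and 2.76% above, against 4.71% and 4.40% elsewhere. Clone 5 had none below and 24.6% above, against 5.19% and 6.15%. Single autosomes passed or came near some of these shares. In clone 5, chromosomes 16 and 6 had 28.7% and 27.3% above. In PRDX1MT, chromosomes 10 and 6 had 22.9% and 22.3% below. In clone 1 the next highest share below was 15.9%, on chromosome 9. The range on chromosome 4 (-0.96 to 0.56 in PRDX1MT, -0.70 to 0.62 in clone 1 and -0.22 to 0.92 in clone 5) lay within the range of windows on the other autosomes for PRDX1MT and clone 1, while the highest window of clone 5 exceeded their 0.73.

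**Figure D3:**
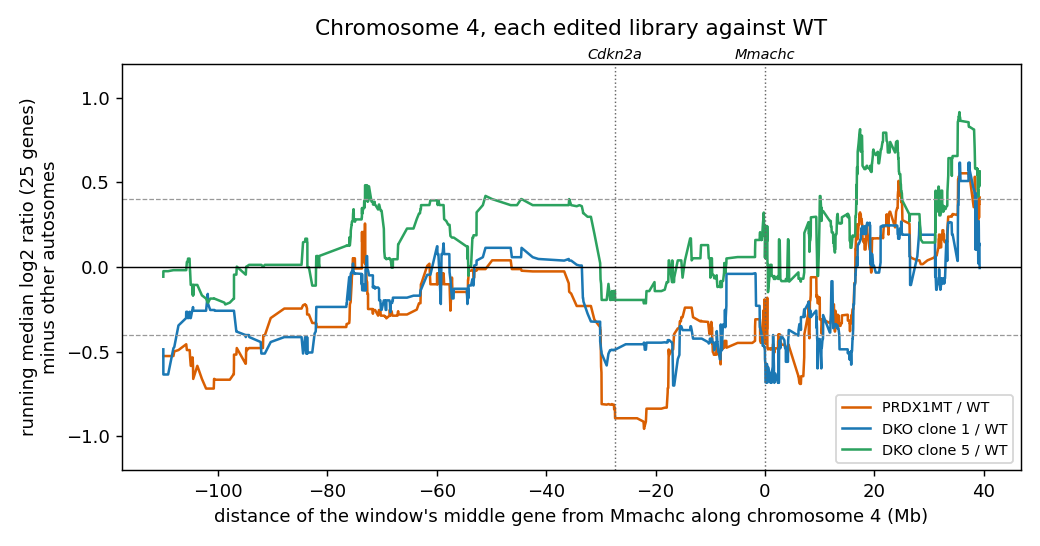
The y axis is the running median over 25 members of the log2 ratio to WT, minus the other autosomes, and the x axis is the distance in Mb from Mmachc, with 1 line for each edited library. PRDX1MT and clone 1 lie below 0 around Cdkn2a and Mmachc, clone 5 near 0, and all 3 lines step up between 10 and 20 Mb beyond Mmachc.

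A step was seen in all 3 comparisons to WT past Rpa2, a subunit of the single-strand DNA binding complex, at 132.77 Mb, where the last long stretch of low windows in clone 1 ended. This point was picked from the running medians, so the values on its sides are a description. Over the 124 members in the 10 Mb before Rpa2 the relative median was -0.31 in PRDX1MT, -0.39 in clone 1 and 0.18 in clone 5. Over the 118 members in the 10 Mb after it the values were 0.23, 0.16 and 0.59. For clone 5 against clone 1 they were 0.54 before and 0.50 after, so the ratio of the clones showed no such step. With genes of like GC content subtracted, the bins from 120 to 130 Mb and from 130 to 140 Mb had relative medians of -0.36 and -0.07 in PRDX1MT, -0.38 and -0.09 in clone 1, and 0.06 and 0.42 in clone 5. Beyond the step clone 5 was above the reference from Kdf1 at 133.52 Mb to Casp9, the initiator caspase of mitochondrial apoptosis, at 141.79 Mb (93 of 104 members, relative median 0.64), and again from Gpr157 at 150.09 Mb to B3galt6 at 155.99 Mb (64 of 71 members).

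The part of the chromosome before Cdkn2a also changed level along its length. Among the 38 members from 10 to 20 Mb the relative median was -0.56 in PRDX1MT, -0.26 in clone 1 and -0.06 in clone 5, and -0.22, -0.14 and 0.14 with genes of like GC content subtracted. Rps20, a ribosomal protein at the start of the chromosome, had 18123 reads in WT, 9710 in PRDX1MT, 6657 in clone 1 and 11371 in clone 5. Plag1, a growth-promoting transcription factor beside it, had 478, 73, 39 and 583 reads. It differed more between the clones than any other gene on the list of broadly expressed genes, with a log2 ratio of 4.197. The reads of Rps20 and Plag1 are raw, from libraries of 37685798, 27570136, 34901511 and 27789693 reads in the same order. Every edited library was smaller than that of WT, so raw reads place it lower against WT than scaled reads would. From 40 to 50 Mb, the densest of the early bins with 102 members, PRDX1MT and clone 1 came closer to the reference at -0.10 and -0.12, and clone 5 stood at 0.32 with 76 of 102 above. From 60 to 70 Mb all 3 were near it, at -0.02, -0.11 and -0.05 over 23 members, and clone 5 against clone 1 gave 0.04 there, the lowest of the bins, and -0.0001 with genes of like GC content subtracted.

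The genes around Mmachc were lower than WT in PRDX1MT and clone 1 and near WT in clone 5. Within 5 Mb on each side of Mmachc lay 88 members, and their relative median was -0.44 in PRDX1MT with 65 of 88 below the reference. Clone 1 stood at -0.45 with 70 below, and clone 5 at 0.10 with 48 above, a value of -0.0025 with genes of like GC content subtracted. Clone 5 against clone 1 gave 0.57, with 67 of 88 above. The Mmachc locus sat inside a stretch of low windows in clone 1 from Uqcrh, a subunit of respiratory complex III, at 116.07 Mb to Col9a2, a chain of cartilage collagen IX, at 121.04 Mb, in which 62 of 73 members lay below the reference. The matching stretch for clone 5 against clone 1 ran from Rad54l at 116.09 Mb to Foxj3 at 119.54 Mb, with 49 of 60 members above the reference and its peak centred on Toe1, 2 genes beyond Ccdc163.

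Levels were alike on the sides of Mmachc in PRDX1MT and clone 5. In PRDX1MT the 28 members in the 5 Mb before Mmachc had a relative median of -0.49 and the 59 in the 5 Mb after it -0.44. Clone 1 had -0.37 before and -0.59 after, and clone 5 had 0.11 and 0.06.

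Mmachc lay above its neighbours in PRDX1MT and nearer to them in both DKO clones. No strand setting is given for the counting, so antisense reads across Mmachc cannot be told from its own. The gene (GRCm38: ENSMUSG00000028690, chr4:116702279-116708406, minus strand) had 10.98 CPM in WT (95% exact Poisson interval 9.997 to 12.04), 16.5 CPM in PRDX1MT (14.97 to 18.18), 6.11 CPM in clone 1 (5.32 to 6.98) and 13.7 CPM in clone 5 (12.3 to 15.1), intervals that cover counting error only. PRDX1MT was the highest library and clone 1 the lowest, and none of the 4 intervals overlapped another except those of PRDX1MT and clone 5. The log2 ratio to WT was 0.59 in PRDX1MT where the 24 nearest members had a median of -0.34, a gap of 0.92 that 17.5% of all members equalled or passed. In clone 1 the ratio was -0.84 against a local -0.46, a gap of -0.38 equalled or passed by 51.6% of members. In clone 5 it was 0.31 against 0.14, a gap of 0.17 equalled or passed by 72.7%. For clone 5 against clone 1 Mmachc had a log2 ratio of 1.15 (2.22-fold), and 0.72 of it was shared with the 24 nearest members. The remaining 0.43 was equalled or passed in size by 50.2% of members.

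In PRDX1MT, Prdx1 and Ccdc163 lay farther from the local level than the other 24 members within 0.5 Mb of Mmachc. Prdx1 (ENSMUSG00000028691, chr4:116685544-116700822, plus strand) had 397 CPM in WT, 30.5 in PRDX1MT, 397 in clone 1 and 335 in clone 5. PRDX1MT alone was low, 13.0-fold under WT, and its gap of -3.45 from the local median was equalled or passed by 0.82% of members. Prdx1 was at 0.00 in clone 1, where the 24 nearest members had a median of -0.47, and at -0.24 in clone 5, where they had 0.27. The ratio of clone 5 to clone 1 was -0.25, opposite in sign to the local median of 0.78.

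Ccdc163 (ENSMUSG00000028689, chr4:116708509-116751206, plus strand), a coiled-coil gene head to head with Mmachc, had 5.87 CPM in WT, 44.0 in PRDX1MT, 2.81 in clone 1 and 8.0 in clone 5. PRDX1MT was 7.42-fold above WT, and its gap of 3.36 from the local median was equalled or passed by 0.93% of members. Tesk2, a kinase that acts on cofilin and the next gene on that strand, had 13.0 CPM in WT, 31.0 in PRDX1MT, 10.8 in clone 1 and 16.2 in clone 5. Both genes had the order PRDX1MT, clone 5, WT and clone 1 from high to low, as Mmachc had. The models of Ccdc163 and Tesk2 overlap on 1 strand, and Tesk2 overlaps Toe1 on the other. The sources used here give no strand setting for the counting, so reads cannot be divided between them with certainty.

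Past Tesk2 the departures were smaller or mixed. Toe1, a 3′ exonuclease of small nuclear RNAs, had log2 ratios to WT of -0.19 in PRDX1MT, -0.45 in clone 1 and 0.32 in clone 5, which are 0.27, 0.18 and 0.18 above the local median. Mutyh, which removes adenine mispaired with oxidised guanine, had 190 reads in PRDX1MT and 197 in WT, a log2 ratio of 0.65 against a local -0.46. Hpdl, a mitochondrial dioxygenase-like protein, had 94 and 51 reads, with a ratio of 1.54. On the Prdx1 side Akr1a1, an aldehyde reductase, followed its neighbours, with -0.28 in PRDX1MT against a local -0.21. Gpbp1l1 and Ccdc17 lay below them, at -0.95 and -1.35 against -0.34 each.

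**Figure D4:**
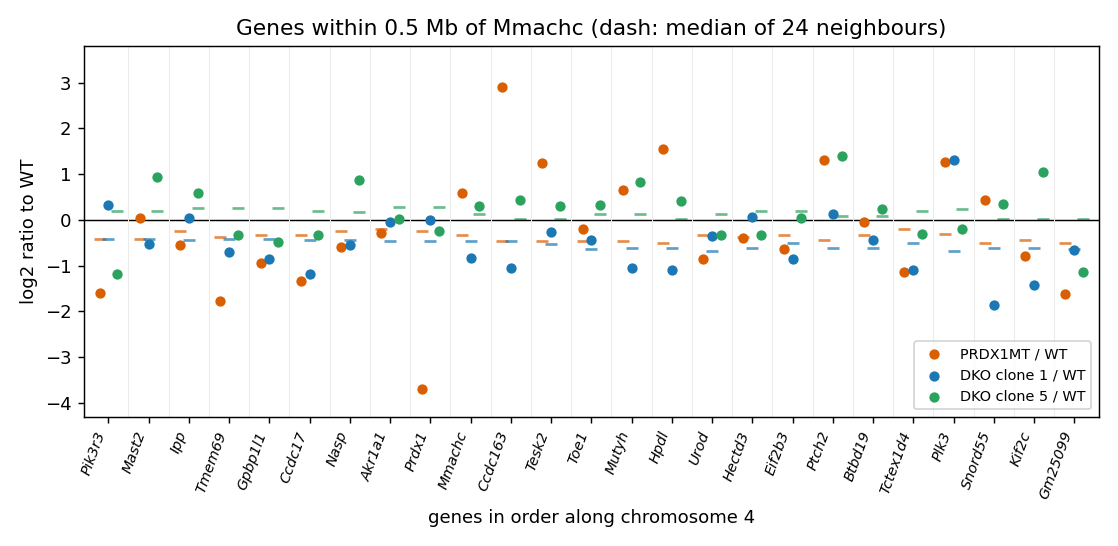
Points are log2 ratios to WT of 25 of the 26 members within 0.5 Mb of Mmachc in chromosomal order, coloured by edited library, and dashes are the median of the 24 nearest members. In PRDX1MT Prdx1 is at -3.70 and Ccdc163 at 2.89 while the dashes are negative and much smaller in size.

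Of the 26 members within 0.5 Mb of Mmachc, 10 lay within 0.5 log2 units of the local median in PRDX1MT, 16 in clone 1, 14 in clone 5 and 10 in the comparison of the clones. Over all 858 members the shares were 60.6%, 59.4%, 63.1% and 56.1%. Near Mmachc the clones differed most at Kif2c, a kinesin that dismantles microtubules in mitosis, which had 16.6 CPM in clone 1 and 93.2 in clone 5. Nasp, a histone chaperone, had 26.0 and 69.8 CPM. Plk3, a stress-responsive kinase, went the other way with 86.7 and 30.1 CPM, and so did Pik3r3, a regulatory subunit of PI3-kinase, with 59.7 and 20.7 CPM.

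The genes within 5 Mb of Cdkn2a were lowest in PRDX1MT, lower than WT in clone 1 and closer to WT in clone 5. Within 5 Mb lay 23 members. Their relative median was -0.81 in PRDX1MT with 20 of 23 below the reference, -0.51 in clone 1 with 18 below, and -0.19 in clone 5 with 14 below. Clone 5 against clone 1 gave 0.23, and 0.42 or 0.43 with a minimum of 50 or 500 reads, where clone 5 against WT gave -0.09 and -0.04. In PRDX1MT a stretch of low windows ran from Dennd4c at 86.75 Mb to Pgm1, a phosphoglucomutase, at 99.93 Mb, with 35 of 42 members below the reference and a relative median of -0.87. Clone 1 had a stretch over nearly the same genes, from Haus6 at 86.58 Mb to Raver2 at 101.07 Mb, with 36 of 48 below and a relative median of -0.47. Transcripts in both stretches had a median GC content of 43.9% and 44.0%, against 50.9% over all members. With genes of like GC content subtracted, the 23 members within 5 Mb stood at -0.52 in PRDX1MT, -0.43 in clone 1 and -0.11 in clone 5. The bin from 90 to 100 Mb then stood at -0.59 in PRDX1MT, in place of -0.84, and at -0.30 in clone 1, in place of -0.45. The bin from 80 to 90 Mb, which holds Cdkn2a, stood at -0.26 in PRDX1MT, in place of -0.37, and at -0.30 in clone 1, in place of -0.46. The order of PRDX1MT and clone 1 thus depended on the genes taken.

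Cdkn2a and Cdkn2b had no reads in any edited line. Cdkn2a (ENSMUSG00000044303, chr4:89274471-89294653, minus strand) had 434 reads in WT and 0 in each edited library. Cdkn2b (ENSMUSG00000073802, chr4:89306299-89311039, minus strand) had 482 and 0. With 3 reads in the edited library as the floor, Cdkn2a was at least 88.6-fold lower in PRDX1MT, at least 123-fold lower in clone 1 and at least 95.1-fold lower in clone 5. The bounds for Cdkn2b were 98.4-fold, 136-fold and 106-fold. The 24 nearest members of Cdkn2a had medians of -0.85, -0.45 and -0.13. Within 0.5 Mb of Cdkn2a all 7 members, itself and Cdkn2b included, lay below the reference in clone 5, with a relative median of -0.71. Within 1 Mb 9 of 10 did, with -0.51. Cdkn2a, Cdkn2b and the pseudogene Gm12607 are counted in both sets and passed the depth minimum only through their WT reads. These low medians therefore rest partly on members picked by a high WT level.

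The flanks of both genes kept reads. Mtap, the enzyme that salvages methionine from methylthioadenosine, starts at 89137122 and ends before Cdkn2a. It had 195 CPM in WT, 83.6 in PRDX1MT, 141 in clone 1 and 162 in clone 5, with log2 ratios to WT of -1.22, -0.47 and -0.27 against local medians of -0.85, -0.45 and -0.18. The gap to the neighbours was -0.01 in clone 1 and -0.09 in clone 5, and -0.36 in PRDX1MT. Klhl9, an adaptor of a ubiquitin ligase, had log2 ratios of -0.84, -0.43 and -0.32, which are -0.01, 0.03 and -0.19 from the local median. The noncoding members between them were lower: ENSMUSG00000117123 had 1356 reads in WT, 189 in PRDX1MT, 592 in clone 1 and 332 in clone 5, and Gm12602 had 358, 66, 204 and 204. ENSMUSG00000117251 had 94, 17, 104 and 50 reads, or 2.27, 0.67, 2.96 and 1.84 CPM, and was above WT in clone 1. Of the 7 members within 0.5 Mb of Cdkn2a, 1 lay within 0.5 log2 units of the local median in PRDX1MT, 3 in clone 1, 3 in clone 5 and 4 in the comparison of the clones.

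**Figure D5:**
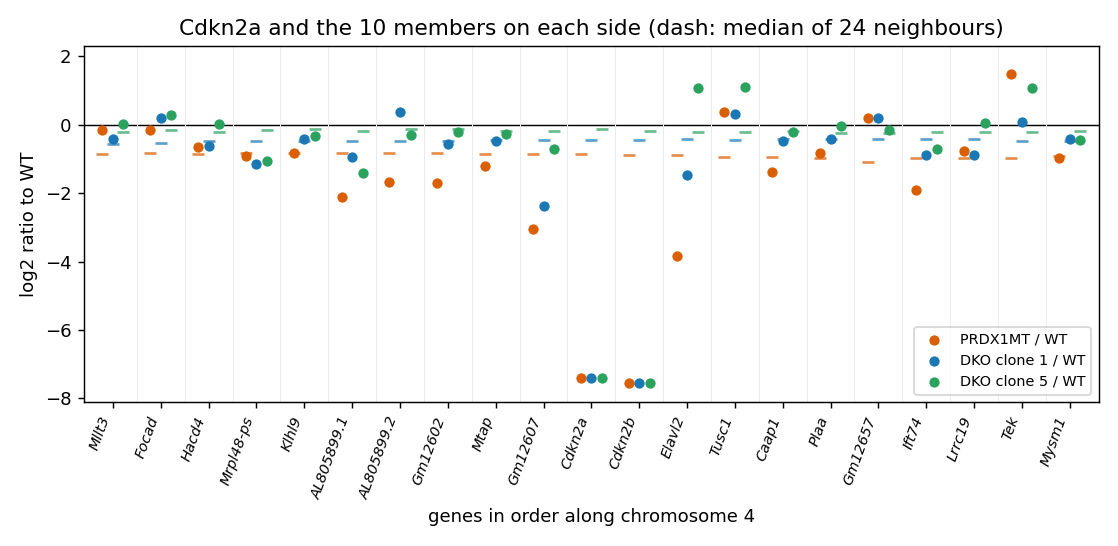
Points are log2 ratios to WT of Cdkn2a and the 10 members on each side of it in chromosomal order, coloured by edited library, and dashes are the median of the 24 nearest members. Cdkn2a and Cdkn2b have 0 reads in all 3 edited libraries, so their points depend on the prior count, while Mtap and Klhl9 lie near the dashes.

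Between the starts of Mtap and Elavl2 the annotation places 21 genes over 2.11 Mb, 12 of them with any read and 3 of them members. This interval held 1038 reads in WT, 10 in PRDX1MT, 51 in clone 1 and 59 in clone 5. Most of the WT total came from Cdkn2a, with 434 reads, and Cdkn2b, with 482, which had 0 in every edited library. The totals are raw and do not describe the level of the other genes of the interval. Gm12606 and Gm12609, noncoding genes on the sides of Cdkn2a and Cdkn2b, had 3 and 11 reads in WT and 0 in every edited library. No bound was computed for these low counts. Gm12610, a noncoding transcript farther on, had 13 reads in WT, 0 in PRDX1MT, 14 in clone 1 and 11 in clone 5. Gm12608, a pseudogene inside it, had 3, 0, 10 and 9 reads. These 2 genes and Gm27580, with 1 read each in WT and both clones, were read in both DKO clones and not in PRDX1MT. Gm12644, close to Elavl2, had 1 read in PRDX1MT and 0 in the other libraries. Gm12607, a pseudogene within Mtap on the other strand, had 72, 4, 10 and 28 reads and shares the uncertainty of overlapping genes.

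Elavl2, a neuronal RNA-binding protein and the next member beyond Cdkn2b, split the lines. It had 242 reads in WT, 9 in PRDX1MT, 73 in clone 1 and 339 in clone 5, with log2 ratios to WT of -3.82, -1.47 and 1.08. The gap between clones of 2.55 stood 2.36 above the local median, and 2.33% of members were as far or farther. Tusc1, the member after it, was above WT in all 3 at 0.36, 0.31 and 1.09. Plaa, a ubiquitin-binding partner of Vcp, and Caap1, an inhibitor of apoptosis, were back near the local level in the DKO clones, with gaps of 0.01 and 0.18 for Plaa and -0.04 and -0.05 for Caap1. Genes with at least 100 reads in WT and none in any of the 3 edited libraries numbered 2 of 713 on chromosome 4, Cdkn2a and Cdkn2b. Of the other autosomes, 13 had no such gene, and the others held between 1 and 3 each.

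Members with a large difference were unevenly split between directions. A difference was counted as large when the log2 ratio was at least 1 in size and its 95% exact interval from the 2 read counts excluded 0. For clone 5 against clone 1, 150 members (17.5%) were higher and 50 (5.83%) lower, against 8.65% higher and 11.4% lower among all 14473 genes. In PRDX1MT 61 members were higher and 88 lower than WT (7.11% and 10.3%), against 8.4% and 8.69% of all genes. In clone 1 the counts were 58 and 87 (6.76% and 10.1%), against 9.36% and 8.22%. In clone 5 they were 94 and 59 (11% and 6.88%), against 6.82% and 9.05%. Scaling by total counts instead gave 35 higher and 171 lower in PRDX1MT, 45 and 116 in clone 1, and 67 and 69 in clone 5. That scaling moved the median of the other autosomes by -0.25, -0.12 and -0.16, a shift that the relative values above do not contain. The split also moved with the thresholds: members with at least 500 reads gave 45 higher and 45 lower in clone 1, and a size of 3-fold gave 20 higher and 36 lower in clone 5.

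Removing the local level changed little of the spread between genes. The interquartile range of the log2 ratios over members was 0.93 in PRDX1MT, 0.85 in clone 1 and 0.81 in clone 5, and 0.77, 0.78 and 0.70 once the median of the 24 nearest members was subtracted, a decrease of 16.7%, 8.04% and 13.9%. On the other autosomes the decrease was 3.40%, 2.06% and 0.83%. For clone 5 against clone 1 the range went from 0.82 to 0.88.

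In the test of both DKO clones against WT (edgeR quasi-likelihood with Benjamini-Hochberg adjustment over 19446 genes), 0 members rose and 7 fell, against 0.0154% higher and 0.453% lower among all genes tested. An unadjusted p under 0.05 in edgeR was reached by 41 members (4.78%), 18 higher and 23 lower, against 988 of the 19446 genes (5.08%), 306 higher and 682 lower, so the share of members was close to that of all genes. The 7 were Penk, Bnc2, Cdkn2a, Cdkn2b, Col8a2, 5730409E04Rik and Extl1, of which Cdkn2a and Cdkn2b are neighbours. DESeq2 called 21 members. edgeR called 0 with a filter of 1 CPM in 2 libraries, and, with WT and PRDX1MT joined into 1 group, 1 without clone 1 and 5 without clone 5.

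Penk, the precursor of enkephalin peptides, had 49.0 CPM in WT and 0.87 ± 0.34 (SD, n = 2) in the DKO clones (edgeR adjusted p = 0.0191), and 0 reads in PRDX1MT. Bnc2, a zinc finger protein of mesenchymal cells, had 32.9 CPM in WT, 13.8 in PRDX1MT and 0.67 ± 0.55 (SD, n = 2) in the DKO clones (edgeR adjusted p = 0.0321). Col8a2, a short-chain collagen, had 23.3 CPM in WT, 47.7 in PRDX1MT and 1.93 ± 0.12 (SD, n = 2) in the DKO clones (edgeR adjusted p = 0.0321). The gene 5730409E04Rik had 1043 raw reads in WT, 540 in PRDX1MT, a smaller library, and 0 in both clones (edgeR adjusted p = 0.0171). Extl1, an enzyme of heparan sulfate chains, had 9.41 CPM in WT, 0.55 in PRDX1MT and 0.24 ± 0.14 (SD, n = 2) in the DKO clones (edgeR adjusted p = 0.0495). Cdkn2a and Cdkn2b had edgeR adjusted p of 0.0278 and 0.0254. They reached the depth for this test through WT alone and drop out under the filter of 1 CPM in 2 libraries. With either clone left out and WT and PRDX1MT, which is also at 0, joined, their edgeR adjusted p lay between 0.5195 and 0.6434. The clones differed by less than their distance to WT for each of the 7 genes. Mmachc did not pass (edgeR log2 ratio -0.18, SE 0.63, adjusted p = 1).

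Cell cycle and growth control genes of the chromosome were mostly higher in clone 5. The list had 23 members, with a relative median of 0.93 in clone 5 and -0.30 in clone 1 against WT, and 1.15 for clone 5 against clone 1, where 12 of 23 had a large difference upwards and 1 downwards, against 17.5% and 5.83% of all members and 8.65% and 11.4% of all genes. The corresponding values over all members were 0.28, -0.19 and 0.42. Cdc20, the activator that starts anaphase, had 95.9 CPM in WT, 66.2 in PRDX1MT, 54.1 in clone 1 and 214 in clone 5. Cdca8, a subunit of the chromosomal passenger complex, had 1432, 714, 658 and 2342 reads in the same order. Rcc1, the exchange factor for Ran, had 1123, 707, 649 and 1793 reads. Cdca8 and Rcc1 were named after their values were seen, so they are examples of the direction only. Their reads are raw, and every edited library was smaller than that of WT. Raw reads therefore place the edited libraries lower against WT than scaled reads would. For clone 5 against clone 1, 19 of the 23 lay above the reference and 4 below. Id3, an inhibitor of bHLH factors, was instead above WT in all 3 edited libraries, at 178, 320, 398 and 451 CPM. PRDX1MT gave a relative median of 0.16 for this list, with 2 members of large difference in each direction, Cdkn2a and Cdkn2b being the 2 lower.

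Matrix and secreted protein genes showed no common direction. The list had 17 members, with relative medians of 0.51 in PRDX1MT, -0.30 in clone 1 and 0.00 in clone 5. Hspg2, the basement membrane proteoglycan perlecan, had 1327 CPM in WT, 2771 in PRDX1MT, 1824 in clone 1 and 4330 in clone 5. Tnc, the matrix protein tenascin C, had 415, 628, 172 and 232 CPM, low in both DKO clones. Svep1, an adhesion protein with sushi domains, had 400, 383, 756 and 235 CPM, and Col16a1, a fibril-associated collagen, 214, 200, 112 and 413 CPM. Of the zinc finger gene cluster near the end of the chromosome, 3 of 18 genes had the depth to be members, and all 3 lay below the reference in all comparisons to WT.

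The members farthest from WT included genes whose neighbours stayed near it. Dhrs3, which reduces retinaldehyde to retinol, had 8.74 CPM in WT, 87.2 in PRDX1MT, 144 in clone 1 and 64.8 in clone 5, while its 24 nearest members had medians of 0.00, 0.15 and 0.23. It was among the 5 highest protein-coding members in all 3 edited libraries, with an edgeR adjusted p of 0.115 for DKO against WT. Trabd2b, a Wnt-cleaving protease, had 3.84, 21.4, 23.0 and 29.7 CPM. In clone 1 alone Padi2, which converts arginine to citrulline, reached 391 CPM against 9.97 in WT, 3.0 in PRDX1MT and 5.51 in clone 5. Tyrp1, a melanosome enzyme, reached 51.8 CPM there against at most 1.47 CPM in the other 3 libraries. Tinagl1, a matricellular protein, was highest in clone 5 at 97.7 CPM, with 8.45 in WT, 18.4 in PRDX1MT and 29.2 in clone 1. Nr4a3, a nuclear receptor of the immediate early response, had 10.6 CPM in WT, 80.4 in PRDX1MT, 61.5 in clone 1 and 6.57 in clone 5. Gm13212 had 266 reads in WT and 55 in clone 1, and 0 in PRDX1MT and clone 5.

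The depth minimum left out genes just under it: Gm12366 and Gm13091 entered with 100 reads, while Gm12396 and Rap1gap, with 98 each, did not.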

How the data were processed

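RNA of 4 libraries was measured once each. The submitters' processing notes name the aligner STAR 2.6.1d and the build mm10. The deposited values are the authors' raw whole-number counts per gene, and the sources used here name no counting program, annotation or strand setting. Of 54532 identifiers, 54495 were placed on chromosomes with GENCODE M21, and 37 (no more than 0.00463% of any library's counts) were not.

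Counts were scaled by the trimmed mean of M-values (TMM) over all genes, log2 CPM used a prior count of 2, and ratios were taken between single libraries. Running medians spanned 25 members. Stretches are runs of windows more than 0.4 from the reference. Intervals are 95% exact (Poisson for levels, conditional binomial for ratios) and cover counting error only, and 3 reads served as the floor where a library had 0. DKO was tested against WT with edgeR 4.0.16 (quasi-likelihood, 3 groups, 1 residual degree of freedom, R 4.3.3), which assumes that the single WT and PRDX1MT libraries vary like the clones. Nothing says how far apart the clones' cultures were, so p-values measure the spread between these 2 libraries. DESeq2 1.42.0, other scalings, prior counts, read minima, window sizes and thresholds were alternatives. Corrections for transcript GC content, or GC, length and level, and leaving out cell cycle genes, were chosen after seeing the data. The functions for running medians and tests were tested on simulated data.

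Members and gene lists were chosen with earlier results of these data known, so no list's direction is independent evidence. Named genes were drawn from those within 0.5 Mb of Mmachc or Cdkn2a, the 5 nearest members on each side of Cdkn2a, the 5 highest and 5 lowest protein-coding members of each edited library with a large difference, the members called by edgeR, and the 5 most abundant of each list. Not every gene of these sets is given in the text, such as Jun, Cdc42, Rps6 and Gpr153. Ends of stretches and a few further members (Cdca8, Rcc1, Rpa2, Rps20, Plag1 and genes between Mtap and Elavl2) were named after their values were seen. 1 member near Mmachc is not reported here by name. Symbols gave 635 members a RefSeq promoter window.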

Additional observations from a re-analysis of the deposited data

How the results depend on the processing

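Median-of-ratios and total-count scaling, prior counts of 0.5 and 5, other read minima, windows of other sizes and both GC corrections turned the direction of 1 of the chromosome and locus medians recomputed under them. This was the relative median within 5 Mb of Mmachc in clone 5 against WT: 0.1035 as measured, -0.00246 with GC content subtracted and -0.00821 with GC, length and level. The 10 Mb bins are not among these medians, and several turned with GC content subtracted. From 10 to 20 Mb clone 5 against WT went from -0.06 to 0.14, and from 140 to 150 Mb PRDX1MT went from 0.23 to -0.0032. Of the medians, the shares of shifted windows and the counts of large differences and edgeR calls, 208 stayed within their spread or count limit and 33 moved. With GC content subtracted, or with GC, length and level, the relative median of clone 5 against WT was 0.2154 and 0.2110 (0.2836 as measured), and the share of PRDX1MT windows more than 0.4 above the reference was 0 and 0. Within 1 Mb of Cdkn2a, where 10 members lie, the relative median was -1.6612 in PRDX1MT and -0.5105 in clone 5. Among these few members are Cdkn2a, Cdkn2b and Gm12607, which passed the depth minimum only through WT. At a distance of 0.3 in place of 0.4, 39.45% of PRDX1MT windows were below and 40.89% of clone 5 windows above. Counts of large differences moved with their threshold. Total-count scaling gave 35 higher and 171 lower in PRDX1MT. With a minimum of 500 reads there were 33 and 57 in PRDX1MT, 45 and 45 in clone 1, and 67 and 26 in clone 5. The relative median within 5 Mb of Cdkn2a for clone 5 was -0.0862 against WT and 0.4228 against clone 1 with a minimum of 50 reads, and -0.0375 and 0.4317 with 500. At a log2 size of 0.58 there were 129 and 224 in PRDX1MT, 114 and 211 in clone 1, 239 higher in clone 5, and 304 and 86 between the clones. At a size of 3-fold these were 18 and 38, 19 and 41, 20 and 36, and 48 and 26. The 7 edgeR calls in DKO became 33 without a filter on low counts, 0 with a filter of 1 CPM in 2 libraries (which leaves out Cdkn2a, Cdkn2b and Extl1), 21 by DESeq2, and 1 to 5 when a DKO clone was left out with WT and PRDX1MT joined. Over these settings the calls of single genes fell below the threshold 14 times and held 18 times. With the 1 CPM filter edgeR's adjusted p was 0.1486 for Penk and 5730409E04Rik, 0.1996 for Bnc2 and 0.1651 for Col8a2, and without a clone only 5730409E04Rik passed both times (edgeR adjusted p 0.0198 without clone 1 and 0.00615 without clone 5). No paired analysis was possible because WT and DKO share only 1 replicate number, which names clones. With 1 library for each line, depth limits genes near 100 reads most, and clone and genotype cannot be told apart.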
